A study of Mus musculus with 9 samples.

Results

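Voltage-gated and related ion channel genes were taken from an iCLIP study of Chtop, an RNA-binding protein of the mRNA export machinery, by gene symbol: Scn pore and beta subunits, every Cacn and Kcn gene, the Hcn genes, the Trpc, Trpm and Trpv genes and the Clcn genes. The rule found 101 of the 22442 genes in the tables, of which 11718 carried a symbol. A symbol was read from the authors' isoform table or from their length table. The length table named 74 of the 101, and 27 were named by the isoform table alone, which lists genes counted in the Chtop immunoprecipitates. Those 27 were therefore members because they had been counted there. Trpc4ap, an adaptor of a ubiquitin ligase, and Trpc5os match the rule by symbol and are not channels.

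iCLIP ligates and sequences the RNA that ultraviolet light has cross-linked to an immunoprecipitated protein. Mouse N2a neuroblastoma cells with a Flp-In site and the rtTA transactivator expressed FLAG-tagged Chtop from a cDNA after 24 h of doxycycline at 2 µg/mL, and were irradiated with 0.15 J/cm2 at 254 nm. Anti-FLAG libraries were made from 3 cultures whose tagged Chtop contained exon 5 and from 3 whose tagged Chtop lacked it, and 3 size-matched inputs took 2% of a lysate that had seen no antibody. Input replicate 1 came from the line without exon 5, input replicate 2 from the line with exon 5 and input replicate 3 from a FLAG-GFP line. The Chtop lines kept their own Chtop gene and made the tagged protein in addition, and the FLAG-GFP line made no tagged Chtop, so none is a model of Chtop loss. The replicates were independent and handled on separate days. Input RNA was frozen and ligated to adapters on its own, so library route and input cannot be told apart.

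Voltage-gated sodium, calcium and potassium channels open when the membrane depolarises and so carry the currents of the action potential, of firing rhythm and of calcium entry. Each is built around a pore subunit, in sodium and calcium channels a single very long polypeptide, and auxiliary subunits bring the pore to the membrane and set its gating. HCN channels carry the pacemaker current, TRP channels pass cations in response to chemical, lipid or thermal cues, and Clcn proteins are chloride channels or chloride-proton exchangers. Neuroblastoma cells, which derive from the sympathetic lineage, are excitable and transcribe several of these genes.

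The files held whole-number counts per gene, split into 5′ UTR, CDS (coding sequence) and 3′ UTR. Totals were 783868 to 1328423 counts with exon 5, 624062 to 1844970 without exon 5, and 75504 to 173342 in the inputs. Levels below are in CPM, the usual per-library rate of counts, after each library was scaled with its trimmed mean of M-values (TMM) factor. A count of 0 allows up to 3 counts, which is 2.16 to 5.67 CPM in an immunoprecipitate and 16.8 to 21.7 CPM in an input, for counting error alone. Chtop itself, which the tagged cDNA also feeds, had 385 ± 20.6 CPM with exon 5, 238 ± 36.7 without exon 5 and 175 ± 256 in the inputs (SD, n = 3 each). Of 14 sympathetic and neuroblastoma markers listed, 8 were named and all 8 were counted, at 606 to 844, 430 to 569 and 246 to 1148 summed CPM in the same order of groups. Of the 9 listed astrocyte, muscle and microglia or blood markers 1 was named, at 1.47 CPM or less in every library. Fibroblast markers, of which 3 were named, summed to 3.63 CPM or less in the Chtop libraries and up to 72.4 CPM in an input, and oligodendrocyte and endothelial markers to 38.7 CPM or less everywhere. The sources used here do not say whether paralogues with near-identical stretches shared reads or whether counting used the strand.

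Summed over the 101 members, channel transcripts took a larger share of each Chtop library than of any input, and this rested on the 27 members named by the isoform table alone. All members made up 0.802, 0.842 and 0.840% of the counts with exon 5 and 0.819, 0.747 and 0.781% without exon 5, against 0.373, 0.467 and 0.457% in the inputs. The shares with and without exon 5 overlapped, and neither group reached down to the inputs. The 74 members named by the length table, whose naming did not depend on a count, made up 0.206, 0.208 and 0.223% with exon 5, 0.174, 0.170 and 0.170% without exon 5, and 0.171, 0.221 and 0.0834% in the inputs. For these 74 both Chtop groups overlapped the inputs. The 27 others, which were named because they had been counted in the immunoprecipitates, made up 0.596, 0.633 and 0.618% with exon 5, 0.645, 0.577 and 0.611% without exon 5, and 0.202, 0.246 and 0.373% in the inputs. In all, the 6 immunoprecipitates held 51640 member counts and the 3 inputs 1572. Of the 101 members, 67 had a count in some immunoprecipitate, 44 had one in all 6, and 34 had none in any library. The 34 included Scn4b, all 3 Cacna2d genes that carried a symbol, Cacna1s and Cacna1f, which encode the skeletal muscle and retinal L-type pores, Trpv1, Trpm8 and Kcnq1. None of the members was counted in inputs alone. With 5 of them (Scn1a, Scn2a, Scn3a, Cacna1b and Kcnh4) the length table gave no 3′ UTR, so their totals are CDS counts.

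**Figure D1:**
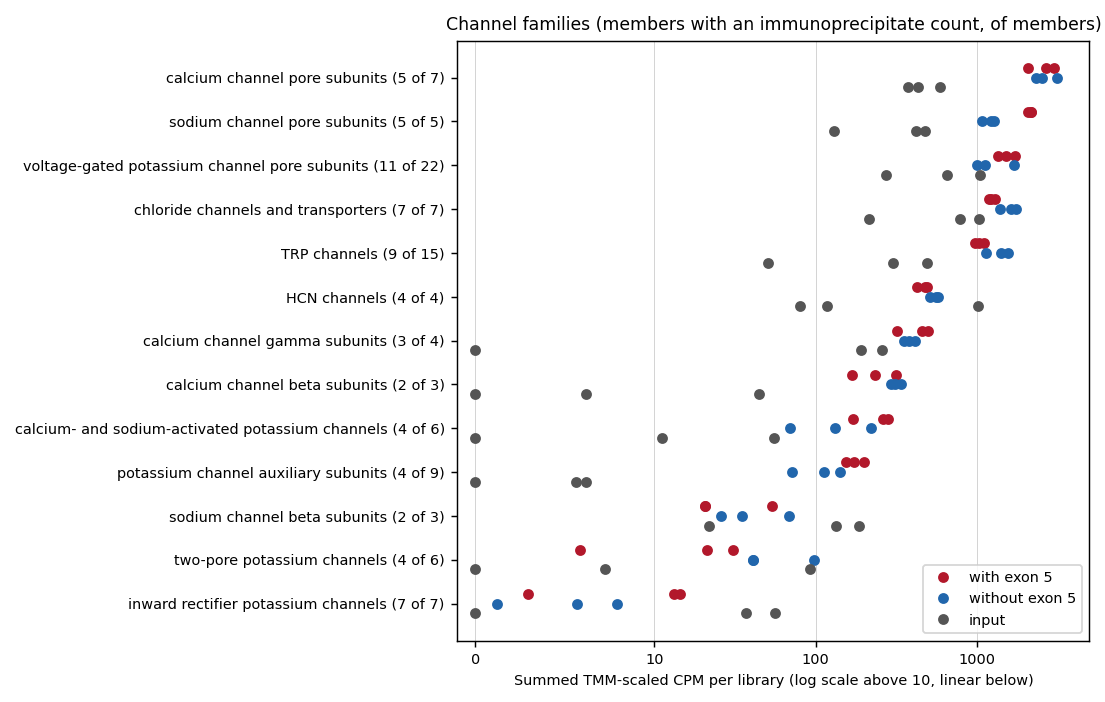
Summed TMM-scaled CPM of each channel family (rows) in each library (points), with exon 5, without exon 5 and input, on an axis that is logarithmic above 10 CPM and linear below; the labels give how many members had an immunoprecipitate count. Sodium and calcium pore subunits lie at 1085 CPM or more in all 6 immunoprecipitates and at 594 CPM or less in the inputs, while HCN channels and voltage-gated potassium pore subunits overlap with an input.

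With exon 5, pore subunits of calcium and sodium channels had the highest family sums. Without exon 5 the sodium pores lay below the chloride, TRP and voltage-gated potassium pore genes. The 7 Cacna1 genes summed to 2589 ± 476 CPM with exon 5, 2665 ± 417 without exon 5 and 467 ± 113 in the inputs (SD, n = 3 each, as for all family sums). The 5 sodium pore genes summed to 2148 ± 51.0, 1197 ± 103 and 342 ± 185 CPM, the 22 voltage-gated potassium pore genes to 1540 ± 182, 1277 ± 372 and 657 ± 386, and the 15 TRP genes to 1040 ± 66.3, 1364 ± 213 and 282 ± 222. The chloride family summed to 1234 ± 55.1, 1589 ± 172 and 679 ± 418 CPM. Among potassium channels that set the resting potential, the genes with a symbol were little counted. The 7 inward rectifiers (Kcnj) with a symbol together gave 41 counts in the immunoprecipitates and 16 in the inputs, and the 6 background leak genes (Kcnk) 190 and 16. Kcnj12, the inward rectifier with the highest level, had 16 immunoprecipitate counts. These sums compare libraries, not genes, because longer transcripts collect more counts. Each family holds only genes that carried a symbol, so it may be incomplete.

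Per kilobase of annotated transcript the order among genes was different from that by total. Cacna1b had 152 CPM per kb with exon 5, 156 without exon 5 and 46.7 in the inputs, over its CDS alone. Clcn3 had 106, 153 and 34.8, Cacng7 105, 77.2 and 35.4, Cacna1g 80.8, 82.5 and 5.1, and Scn8a 73.1, 38.6 and 11.3 CPM per kb. Hcn2 had 54.0, 88.3 and 93.7, but its input mean rested on input replicate 2, at 795 CPM against 30.9 and 72.4 CPM in input replicates 1 and 3.

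To ask which channel mRNAs were recovered with Chtop beyond their level in the lysate, each isoform was compared with the inputs. In each comparison 13 of the 47 members tested were higher in Chtop libraries, among them single sodium, calcium, potassium, HCN and TRP channel genes, and none of the 47 was lower by edgeR. The test was edgeR's quasi-likelihood test on gene totals over all 9 libraries and all genes, with a Benjamini-Hochberg adjusted p under 0.05 as the threshold. With exon 5, 13 of 47 were higher and 0 lower, where 8.31% of all genes tested were higher and 0.863% lower. Without exon 5, 13 of 47 were higher and 0 lower, beside 8.12% and 0.587% of all genes. The 2 sets shared 11 genes and together held 15, spread over 10 of 14 families. At an unadjusted p under 0.05 edgeR gave 26 of 47 higher with exon 5 and 24 without exon 5, beside 25.4% and 25.2% of all genes tested, and 0 lower in either, beside 3.75% and 3.36%. DESeq2, run as an alternative, called 1 member lower with exon 5, the sodium channel beta subunit Scn3b, and 0 lower without exon 5. With no filter on low counts edgeR called 1 member lower with exon 5, Trpv3, a warmth-gated TRP channel that the filter had left out and that was chosen after its values were seen. Trpv3 had 0, 0 and 1 counts with exon 5 and 29, 1 and 0 in the inputs. Kcnn2 and Scn8a passed with exon 5 alone and Clcn3 and Trpm2 without exon 5 alone, and none of these 4 differed between the isoforms in the test given further on.

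A gene passed the filter on low counts mostly through the immunoprecipitates, and 14 of the 47 had 0 counts in every input, so the count of calls describes the tested members and not all 101. Among the 20 tested members that the length table named, 4 were higher with exon 5 and 2 without, against 7.59% and 7.77% of genes named in that way. Of all genes with a symbol, 10.1% and 9.9% were higher.

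Leaving out 1 library at a time moved the counts of calls widely. The calls with exon 5 numbered 3, 1 and 0 without replicates 1, 2 and 3 with exon 5, where 1.86, 0.66 and 0.55% of all genes tested were higher. They numbered 4 without each library lacking exon 5 in turn (all genes: 2.17 to 2.25%), and 16, 23 and 18 without input replicates 1, 2 and 3 (all genes: 10.3, 24.8 and 10.1%). The calls without exon 5 numbered 2, 1 and 0 without replicates 1, 2 and 3 of that group (all genes: 1.48, 1.08 and 0.346%). They numbered 3 without each library with exon 5 (all genes: 2.1 to 2.5%), and 16, 21 and 15 without the inputs in turn (all genes: 10.6, 24.6 and 10.2%). The number of calls among all genes thus moved with the same libraries. Scn3a passed under 16 of 18 settings with exon 5 and 15 of 18 without exon 5, Cacnb1 under 15 and 16, and Cacna1b under 5 in each. Fold changes also depend on the scaling: the median log2 fold change of all genes tested was 1.03 in both comparisons under TMM, and 0.35 with exon 5 and 0.33 without exon 5 under library size alone. The members' median was 2.16 with exon 5 and 2.13 without exon 5 under TMM, or 1.61 and 1.23 with genes absent from the inputs set at their lower bound, beside 0.70 and 0.72 for all genes treated likewise. For the 20 members named by the length table the medians were 1.68 and 1.17, beside 0.97 and 0.97 for genes named in that way. At the lower bound they were 1.26 and 0.95, beside 0.66 and 0.69.

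**Figure D2:**
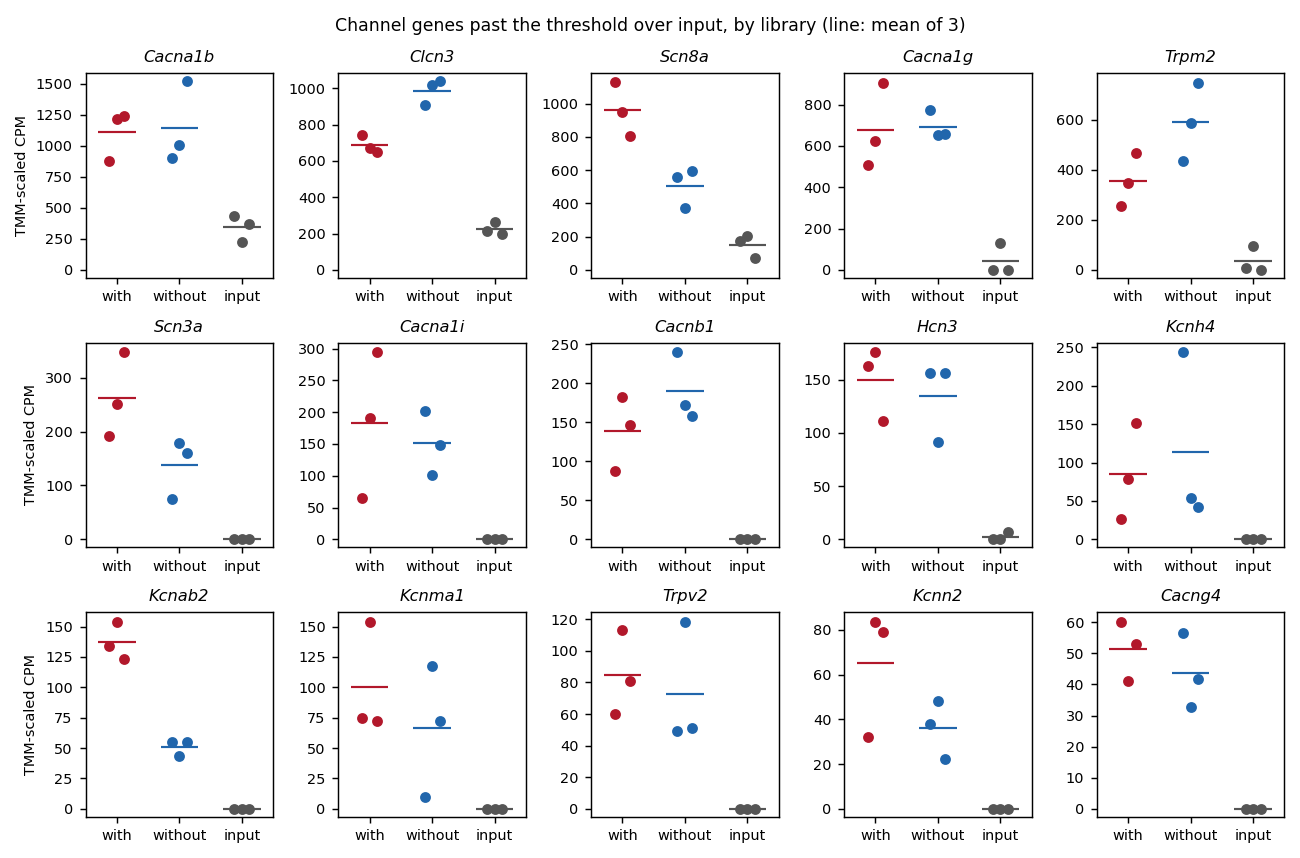
TMM-scaled CPM of the 15 members past the threshold over input in either comparison, 1 panel per gene, with 3 libraries per group as points and their mean as a line, each panel on its own linear axis. In 9 of the 15 every input point lies at 0, and in all 15 both Chtop groups lie above the inputs.

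The sodium channel pore subunits all lay higher in the libraries with exon 5 than in the inputs, and 2 of 5 passed the test there. Of all genes tested, 33.1% were separated in this way and 8.31% were called higher. Scn1a, Scn2a, Scn3a and Scn9a were named by the isoform table alone, which lists genes counted in the immunoprecipitates. That choice favoured higher values there, so these counts describe the tested genes only. Scn8a, the pore subunit that dominates at the axon initial segment (chromosome 15, 100869863 to 101045938, GRCm38.p6), had 1130, 947 and 804 CPM with exon 5, 559, 371 and 592 CPM without exon 5, and 173, 202 and 72.4 CPM in the inputs. The 3 groups did not overlap. Scn8a was higher with exon 5 than in input by a log2 fold change of 2.68 (SE 0.63, adjusted p = 0.0223), and its value without exon 5 was 1.76 (SE 0.62, adjusted p = 0.0785). In replicate 1 with exon 5, 224 of its 770 counts lay in the 5′ UTR, against 0 in each of the other libraries with exon 5.

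Scn3a, the pore subunit of embryonic neurons (chromosome 2, 65457118 to 65567591), had 191, 251 and 347 CPM with exon 5, 75.6, 179 and 160 CPM without exon 5, and 0 in all 3 inputs. It was at least 13.8-fold higher with exon 5 than in input (adjusted p = 0.0113) and at least 7.27-fold higher without exon 5 (adjusted p = 0.0157). Such bounds set 3 counts in each input library against the mean of the immunoprecipitates. Scn2a, which carries sodium current in immature axons and lies beside Scn3a (65620764 to 65767447), had 402, 351 and 319 CPM with exon 5, 108, 120 and 171 CPM without exon 5, and 124, 95.2 and 0 CPM in the inputs. The libraries with exon 5 lay above all others, while those without exon 5 overlapped the inputs. Its log2 fold change over input was 2.28 with exon 5 (SE 1.06, adjusted p = 0.168) and 0.85 without exon 5 (SE 1.03, adjusted p = 0.633), neither past the threshold.

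Scn9a, known from pain-sensing and sympathetic neurons, lies in the same cluster (66480080 to 66635114). It had 429, 500 and 657 CPM with exon 5, 538, 367 and 275 CPM without exon 5, and 179, 123 and 57.9 CPM in the inputs. Both Chtop groups lay above the inputs, but the gene total did not pass with exon 5 (log2 2.13, SE 0.72, adjusted p = 0.0714) or without exon 5 (1.71, SE 0.72, adjusted p = 0.132). Scn1a, the sodium channel of inhibitory interneurons (66270781 to 66440837), was lower in level, at 33.8, 41.1 and 40.4 CPM with exon 5, 7.56, 48.3 and 20.1 CPM without exon 5, and 0 in the inputs (adjusted p = 0.0632 and 0.0843). Of the beta subunits, which are short membrane proteins that modulate and anchor the pore, Scn3b was tested. It had 20.6, 20.5 and 52.9 CPM with exon 5, 68.0, 35.0 and 25.9 CPM without exon 5, and 185, 134 and 21.7 CPM in the inputs, and differed from input by -1.85 on the log2 scale with exon 5 (SE 1.11, adjusted p = 0.29) and by -1.41 without exon 5 (SE 1.10, adjusted p = 0.435).

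Among the calcium channel pores, 3 of 5 tested passed in both comparisons, where 8.31% of all genes tested were higher with exon 5 and 8.12% without exon 5. Of the 3, Cacna1b and Cacna1g were named by the isoform table alone, which lists genes counted in the immunoprecipitates. Cacna1b encodes the N-type channel of presynaptic terminals (chromosome 2, 24603860 to 24763200) and had the highest mean level of all members. It had 879, 1217 and 1241 CPM with exon 5, 901, 1009 and 1522 CPM without exon 5, and 432, 224 and 369 CPM in the inputs. Both Chtop groups lay above every input and overlapped with each other. Over input it was higher by 1.70 on the log2 scale with exon 5 (SE 0.51, adjusted p = 0.0491) and by 1.74 without exon 5 (SE 0.51, adjusted p = 0.0468), just inside the threshold. Both values ran from 0.79 to 1.98 and from 0.81 to 2.05 over the other settings. With length offsets in the fit, neither Cacna1b nor Cacna1g passed, so that 1 of the 5 pores, Cacna1i, did.

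The T-type pores Cacna1g and Cacna1i, which open at low voltage and support burst firing, were higher as well. Cacna1g (chromosome 11, 94408391 to 94474400) had 506, 625 and 906 CPM with exon 5, 773, 651 and 656 CPM without exon 5, and 0, 129 and 0 CPM in the inputs. All its input counts thus came from input replicate 2. On the log2 scale it was higher by 3.94 with exon 5 (SE 1.14, adjusted p = 0.0439) and by 3.97 without exon 5 (SE 1.14, adjusted p = 0.0442). Cacna1i (chromosome 15, 80287238 to 80398292) had 64.6, 191 and 294 CPM with exon 5, 202, 102 and 149 CPM without exon 5, and 0 in the inputs. It was at least 9.63-fold higher with exon 5 (adjusted p = 0.0146) and at least 7.93-fold higher without exon 5 (adjusted p = 0.0172). Cacna1c, the L-type pore of heart and neurons, had 607 ± 59.3, 668 ± 115 and 75.2 ± 124 CPM (SD, n = 3 each) with exon 5, without exon 5 and in input. Nearly all of its input signal was in replicate 2, at 218 CPM, and it did not pass (adjusted p = 0.0882 and 0.0804). Without that input it did, at an adjusted p of 0.000944 with exon 5 and 0.000816 without exon 5. The Cacna1c locus overlaps the coding gene Dcp1b.

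Of the auxiliary calcium channel subunits, 1 of 2 beta and 1 of 3 gamma genes tested passed, beside 8.31% and 8.12% of all genes tested with and without exon 5. Both genes that passed, Cacnb1 and Cacng4, were named by the isoform table alone. Cacnb1 encodes a beta subunit, the intracellular partner that carries the pore to the membrane (chromosome 11, 98001508 to 98023034). It had 88.1, 182 and 146 CPM with exon 5, 240, 172 and 158 CPM without exon 5, and 0 in the inputs. That made it at least 7.29-fold higher with exon 5 (adjusted p = 0.0146) and at least 9.99-fold higher without exon 5 (adjusted p = 0.0131). The locus overlaps Rpl19, a ribosomal protein gene, so reads of the neighbour cannot be told apart without knowing the strand. Of the gamma subunits, several of which also escort AMPA receptors, Cacng4 passed, at 60.2, 41.1 and 52.9 CPM with exon 5, 56.7, 32.6 and 41.7 CPM without exon 5, and 0 in the inputs. Its bounds were at least 2.70-fold (adjusted p = 0.0404) and at least 2.30-fold (adjusted p = 0.0462). Cacng7 had the highest level of the gamma subunits, at 164, 290 and 241 CPM with exon 5, 136, 182 and 194 CPM without exon 5, and 0, 235 and 0 CPM in the inputs, and did not pass (adjusted p = 0.477 and 0.625). Without input replicate 2 it did, at an adjusted p of 0.00372 with exon 5 and 0.00457 without exon 5. The 3 alpha2delta genes that carried a symbol, whose products sit outside the membrane, had no count in any library.

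Among potassium channels 4 genes passed, all with 0 counts in the inputs, where 8.31% and 8.12% of all genes tested were higher with and without exon 5. Of the 4, Kcnab2, Kcnma1 and Kcnh4 were named by the isoform table alone. Kcnab2, a cytoplasmic beta subunit related to oxidoreductases, had 134, 154 and 123 CPM with exon 5 and 54.8, 43.5 and 55.4 CPM without exon 5. It was at least 7.20-fold higher than input with exon 5 (adjusted p = 0.0171) and at least 2.69-fold higher without exon 5 (adjusted p = 0.0338), and its locus overlaps Nphp4. Kcnma1, the large-conductance calcium-activated channel, had 74.9, 154 and 72.1 CPM with exon 5 and 9.44, 117 and 72.6 CPM without exon 5. Its bounds over input were 5.28-fold with exon 5 (adjusted p = 0.0329) and 3.49-fold without exon 5 (adjusted p = 0.0418), the second falling to 2.16-fold without replicate 2 of that group.

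Kcnh4, of the ether-a-go-go family, had 26.4, 79.2 and 151 CPM with exon 5 and 244, 54.4 and 41.7 CPM without exon 5. It varied several-fold within each group, and was at least 4.50-fold higher than input with exon 5 (adjusted p = 0.0366) and at least 5.96-fold higher without exon 5 (adjusted p = 0.0331). These bounds were 2.78-fold without replicate 3 with exon 5 and 2.53-fold without replicate 1 lacking exon 5. Kcnn2, a small-conductance calcium-activated channel, had 32.3, 83.6 and 78.9 CPM with exon 5 and 37.8, 48.3 and 22.3 CPM without exon 5. It passed with exon 5 (at least 3.41-fold, adjusted p = 0.036), and without exon 5 its bound was 1.90-fold (adjusted p = 0.054).

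Kcnk3, an acid-sensitive leak channel, had 20.6, 5.87 and 21.2 CPM with exon 5, 98.2, 41.1 and 18.0 CPM without exon 5, and 92.6, 0 and 0 CPM in the inputs, with no call.

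HCN, TRP and chloride channel genes gave 1, 2 and 1 calls in either comparison, of 3, 7 and 6 tested. Of all genes tested, 8.31% were higher with exon 5 and 8.12% without exon 5. Hcn3, Trpm2 and Clcn3 were named by the isoform table alone. Hcn3, a slow pacemaker channel (chromosome 3, 89146775 to 89160284), had 163, 176 and 112 CPM with exon 5, 157, 91.8 and 156 CPM without exon 5, and 0, 0 and 7.24 CPM in the inputs. With 1 count in all inputs, the ratio to input was 69.1 with exon 5 (95% exact interval 12.3 to 2738, adjusted p = 0.022) and 65.5 without exon 5 (11.7 to 2594, adjusted p = 0.0239). The interval covers counting error alone, and the locus overlaps Pklr, which encodes a pyruvate kinase. Hcn2, a faster pacemaker channel, had 115, 199 and 204 CPM with exon 5, 227, 353 and 267 CPM without exon 5, and 30.9, 795 and 72.4 CPM in the inputs. Input replicate 2 exceeded every Chtop library, and neither comparison passed (log2 -0.80 and -0.09). Without input replicate 2 both signs turned, to 1.80 with exon 5 (adjusted p = 0.092) and 2.53 without exon 5 (adjusted p = 0.0338, past the threshold).

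Trpm2, a calcium-permeable channel gated by ADP-ribose (chromosome 10, 77907722 to 77969909), had 257, 346 and 466 CPM with exon 5, 436, 587 and 748 CPM without exon 5, and 6.17, 95.2 and 0 CPM in the inputs. It was higher without exon 5 by a log2 fold change of 4.08 (SE 1.09, adjusted p = 0.0344), and its value with exon 5 was 3.35 (SE 1.06, adjusted p = 0.0574). Trpv2, a cation channel related to the capsaicin receptor, had 60.2, 113 and 80.8 CPM with exon 5, 49.1, 118 and 51.0 CPM without exon 5, and 0 in the inputs. It was at least 4.45-fold higher with exon 5 (adjusted p = 0.0268) and at least 3.83-fold higher without exon 5 (adjusted p = 0.0316). Trpm7, a channel fused to a kinase, had 392 ± 103, 493 ± 20.0 and 72.7 ± 94.1 CPM (SD, n = 3 each) with exon 5, without exon 5 and in input, and did not pass (adjusted p = 0.126 and 0.0941).

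Clcn3, an endosomal chloride-proton exchanger (chromosome 8, 60910389 to 60983317), had 743, 670 and 648 CPM with exon 5, 907, 1015 and 1040 CPM without exon 5, and 216, 263 and 196 CPM in the inputs. The 3 groups did not overlap. It was higher without exon 5 than in input by a log2 fold change of 2.13 (SE 0.54, adjusted p = 0.0301), and its value with exon 5 was 1.61 (SE 0.53, adjusted p = 0.0656).

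Separation of libraries was more common than calls. In 28 of the 47 tested members every library with exon 5 lay above every input, and in 26 every library without exon 5 did, where 33.1% and 35.8% of all genes tested did so. Naming by the isoform table favoured members counted in the immunoprecipitates. Among the 20 tested members named by the length table, 9 and 8 were separated in this way, beside 1264 and 1390 of 3953 genes so named. In 1 member, Trpc6, every Chtop library lay below every input in both comparisons, where 3.4% and 3.43% of all genes did. Trpc6, a diacylglycerol-gated cation channel chosen after its values were seen, had 5.87, 11.7 and 26.0 CPM with exon 5, 24.6, 14.5 and 0 CPM without exon 5, and 130, 56.0 and 50.7 CPM in the inputs. On the log2 scale that is -2.41 with exon 5 (SE 1.45, adjusted p = 0.291) and -2.61 without exon 5 (SE 1.47, adjusted p = 0.258), neither past the threshold.

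To ask whether exon 5 changes which channel mRNAs Chtop meets, the libraries with exon 5 were compared with those without it. No member differed past the threshold: 0 of 47 were called in either direction by edgeR, where the background was also 0%, and DESeq2 called 0 as well. At an unadjusted p under 0.05 edgeR gave 0 members, beside 33 genes higher and 60 lower among all 8342 tested. Of the sodium channel pores, 5 of 5 had log2 fold changes above 0, beside 23 of 47 members and 48.7% of all genes tested. Summed over the family, sodium pore subunits had 2186, 2090 and 2168 CPM with exon 5 and 1288, 1085 and 1218 CPM without exon 5, which do not overlap. Sums of other families did not overlap either. Those of the potassium auxiliary subunits were also higher with exon 5. Lower with exon 5 were the chloride, TRP, HCN and background leak (Kcnk) genes. The chloride genes, for one, had 1296, 1217 and 1190 CPM with exon 5 and 1403, 1622 and 1742 CPM without exon 5. Shared reads among related genes cannot be separated in such sums, and the sums themselves were not tested.

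The sizes of these differences were close to their errors. Scn2a had 357 ± 41.8 CPM with exon 5 and 133 ± 33.7 CPM without exon 5 (SD, n = 3 each), a log2 difference of 1.42 (SE 1.01) that ran from 1.28 to 1.65 over the other settings. Scn8a had 961 ± 163 CPM with exon 5 and 507 ± 119 CPM without exon 5, a difference of 0.92 (SE 0.59), and Scn3a 263 ± 78.9 CPM with exon 5 and 138 ± 55.1 CPM without exon 5, a difference of 0.92 (SE 0.92). Scn1a and Scn9a overlapped between the groups, at 0.59 (SE 1.30) and 0.43 (SE 0.68). The adjusted p was 1 for each after rounding.

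Of the 47 tested members, 6 had all libraries with exon 5 above all libraries without it, and 2 had all below, beside 6.49% and 7.43% of all genes tested. Scn2a, Scn3a, Scn8a, Kcnab2 and Kcnd1, an A-type potassium channel, were 5 of the 6. Kcnab2 had 137 ± 15.7 CPM with exon 5 and 51.2 ± 6.68 CPM without exon 5 (log2 1.41, SE 1.02). Kcnd1 had 55.8, 103 and 27.9 CPM with exon 5 and 1.89, 26.6 and 18.0 CPM without exon 5 (log2 1.97, SE 1.33). The 2 lower genes were Clcn3, at 687 ± 49.4 CPM with exon 5 and 987 ± 71.0 CPM without exon 5 (log2 -0.52, SE 0.51), and Hcn2 (log2 -0.71, SE 1.00). The calcium pores were near 0, with Cacna1b at -0.04 (SE 0.49) and Cacna1g at -0.03 (SE 0.98).

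**Figure D3:**
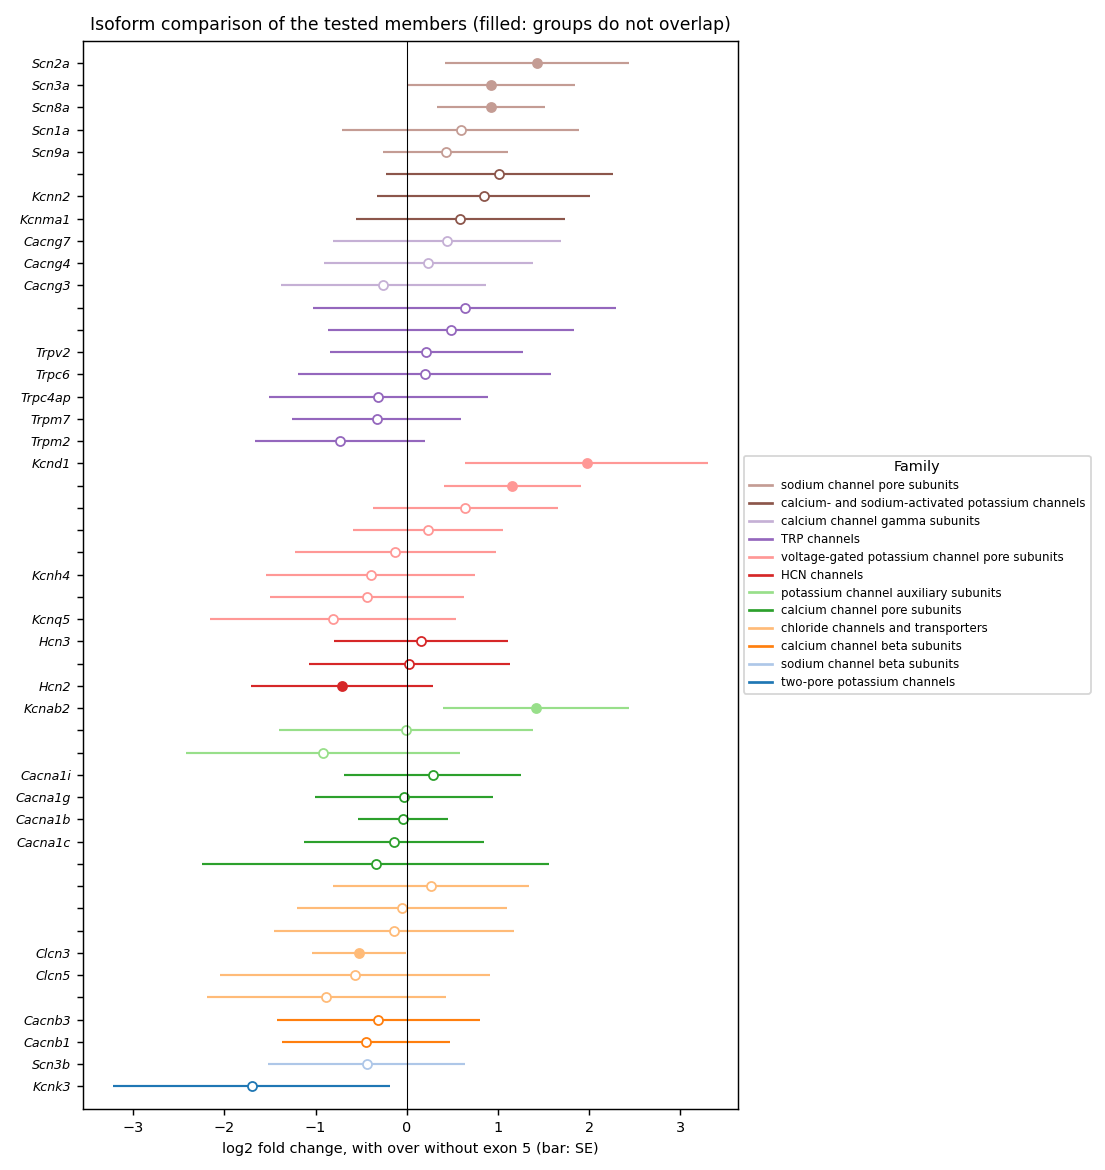
Log2 fold change of gene totals, with over without exon 5, for the 47 tested members (points) with its standard error (bars), grouped and coloured by family and labelled where the gene is described in the text; filled points mark genes whose 2 groups of 3 libraries do not overlap. The 5 sodium pore subunits lie right of 0, between 0.43 and 1.42, and the calcium pore subunits lie on both sides, between -0.34 and 0.28.

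The authors' deposited table sorts gene parts into classes whose header asks for a log2 fold change of 1 in the same direction in all replicates, toward the isoform with exon 5, toward the isoform without it, or neither. For the CDS, the authors' deposited table put Scn2a (log2 1.47) and Kcnd1 (2.22) in the class with exon 5, which is 2 of 36 members beside 7.41% of all genes listed. It put Cacnb1 (-1.38), Clcn5 (-2.64) and Kcnq5 (-2.23) in the class without exon 5, which is 3 of 36 beside 8.32%. For the 3′ UTR, the authors' deposited table put Kcnab2 (1.48) with exon 5 and Cacng3 (-2.40) without exon 5, each 1 of 23, beside 9.87% and 10.1% of the genes listed. In the authors' deposited table Scn3a (0.96) and Scn8a (0.86) stood in the shared class for the CDS. In the edgeR fit by part, 0 of 39 members differed between isoforms in the CDS and 0 of 30 in the 3′ UTR, also at an unadjusted p under 0.05. Kcnd1, Clcn5 and Kcnq5 are named because that table classed them.

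Split by part of the transcript, the channel mRNAs were higher over input in the CDS of 18 genes and in the 3′ UTR of 9. Taking both isoforms together against the inputs, 18 of 39 members tested in the CDS were higher and 0 lower (all genes: 17.6% and 1.41%), and 9 of 30 tested in the 3′ UTR were higher and 0 lower (all genes: 14.5% and 1.34%). Naming by the isoform table and the filter on low counts both favoured members counted in the immunoprecipitates. These counts therefore describe the tested members and do not set channels apart from all genes. They were not split by how the members were named. At an unadjusted p under 0.05, 0 were lower in either part. Both parts were called in 5 genes: Cacna1i, Cacnb1, Cacnb3, Hcn3 and Trpm2. The input part was at 0 in 13 of the 18 CDS calls and 4 of the 9 calls in the 3′ UTR. Leaving out 1 library gave 2 to 4 CDS calls without any 1 immunoprecipitate and 13, 26 and 15 without the inputs in turn. For the 3′ UTR it gave 4 and 3 calls with replicates 2 and 3 of the group with exon 5 left out in turn, 5 and 1 with replicates 2 and 3 of the group without exon 5 left out, and 15 with input replicate 2 left out.

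The parts brought in 7 members whose totals had not passed, among them Scn9a, Scn1a, Cacng3, Cacng7 and Cacnb3 in the CDS, the last also in the 3′ UTR, and Trpc4ap in the 3′ UTR. The CDS of Scn9a had 208, 282 and 556 counts with exon 5, 185, 202 and 250 without exon 5, and 8, 0 and 0 in the inputs, a log2 fold change of 4.22 (SE 1.18, adjusted p = 0.03). Its 3′ UTR had 84, 59 and 127 counts with exon 5, 100, 102 and 132 without exon 5, and 21, 22 and 8 in the inputs, with no call. Cacng3, a gamma subunit that escorts AMPA receptors, had its input counts, 31, 4 and 0, all in the 5′ UTR. In the Chtop libraries too the 5′ UTR of Cacng3 held most counts, 492 of 835, against 217 in the CDS. No part of Cacng3 was called in the test of relative use given further on. Its CDS had 27, 13 and 44 counts with exon 5, 25, 53 and 55 without exon 5, and 0 in the inputs, and was at least 2.03-fold higher (adjusted p = 0.0329).

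Of the remaining members named by part, Cacnb3, another beta subunit, had 263 CDS counts in the Chtop libraries and 0 in the inputs (at least 2.13-fold higher, adjusted p = 0.0376), and 388 counts in the 3′ UTR against 1 in the inputs (ratio 59.3, 95% exact interval 10.6 to 2347, adjusted p = 0.0292). Cacng7 had 234 CDS counts against 0 (at least 2.32-fold, adjusted p = 0.0419), and Scn1a 165 against 0 (at least 1.54-fold, adjusted p = 0.0467). Trpc4ap had 234 counts in the 3′ UTR against 1 (ratio 35.7, 95% exact interval 6.35 to 1418, adjusted p = 0.0447), and its locus overlaps the muscle myosin gene Myh7b. In Clcn3 the call lay in the 3′ UTR, with 274, 293 and 304 counts with exon 5, 277, 527 and 743 without exon 5, and 18, 29 and 15 in the inputs (log2 2.53, SE 0.75, adjusted p = 0.032).

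**Figure D4:**
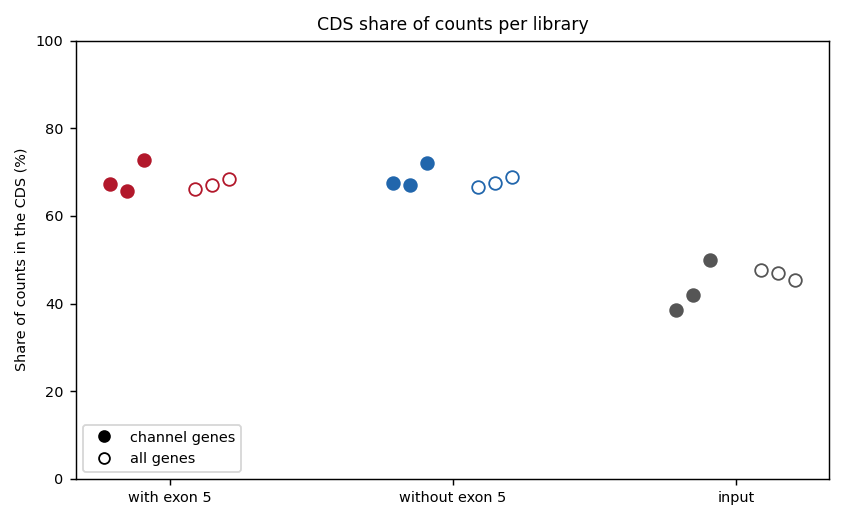
Share of counts that lay in the CDS, in percent, in each library with exon 5, without exon 5 and input, for the channel genes (filled points) and for all genes (open points). Channel genes lie at 65.8 to 72.7% in the 6 immunoprecipitates and at 38.5 to 49.9% in the inputs, and all genes at 66.1 to 68.8% and 45.4 to 47.6%.

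The CDS share of member counts was 67.4, 65.8 and 72.7% with exon 5 and 67.5, 67.0 and 72.2% without exon 5, against 38.5, 41.9 and 49.9% in the inputs. The isoforms overlapped, and every Chtop library lay above every input, as in the counts of all genes. Among members with an annotated 3′ UTR the share was 58.0 to 66.1% in the Chtop libraries and 21.6 to 41.2% in the inputs, so the difference did not rest on the 5 genes without one. Whether a part moved differently from the rest of its own gene was tested with diffSpliceDGE, edgeR's test of relative use. It called 0 of 60 member parts, with 0.178% of all parts called and 7 member parts at an unadjusted p under 0.05, beside 13.9% of all parts. Between isoforms it called 0 of 60, and 0 at an unadjusted p under 0.05.

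The members were long genes. Their median CDS was 2391 bases, and 2670 bases in the 47 tested and 3054 in the 15 higher over input, beside 1185 bases in all genes and 1698.5 in all genes tested. Across the 47 members the log2 fold change over input, at its bound where the inputs were 0, had a Spearman correlation with CDS length of 0.23 with exon 5 and 0.17 without exon 5. Over all genes tested the correlations were 0.43 and 0.41, across genes that share libraries and are not independent replicates. With length offsets in the fit, 11 members were higher with exon 5 and 11 without exon 5, where 9.3% and 8.97% of all genes tested were. Cacna1b and Cacna1g lost their call in both comparisons.

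Genes that work with these channels were taken from a list of binding, anchoring and modifying proteins. Of 31 tested, 4 were higher and 1 lower with exon 5, beside 8.31% and 0.863% of all genes tested, and 3 higher and 0 lower without exon 5, beside 8.12% and 0.587%. The 3 of 31 is close to the background. Rims2, which tethers calcium channels at the release site, had 967 ± 212 CPM with exon 5, 716 ± 30.9 without exon 5 and 172 ± 35.3 in input (SD, n = 3 each), for log2 fold changes of 2.49 (adjusted p = 0.0187) and 2.05 (adjusted p = 0.0353). Sptbn4, the spectrin of the axon initial segment, had 505 ± 130, 319 ± 68.2 and 16.8 ± 29.1 CPM in the same order, for log2 fold changes of 4.83 (adjusted p = 0.0246) and 4.16 (adjusted p = 0.0379). Ank3, the ankyrin that anchors sodium channels there, was higher with exon 5 (log2 2.30, adjusted p = 0.0226), as was Unc80, a subunit of the sodium leak channel complex (log2 4.13, adjusted p = 0.0451). Prkaca, the catalytic subunit of protein kinase A, was lower with exon 5, at a mean of 24.0 CPM against 482 ± 552 CPM in input (SD, n = 3; log2 -4.31, adjusted p = 0.045). Stac2, which binds L-type channels, was at least 2.63-fold higher without exon 5 (adjusted p = 0.0499).

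Of 33 tested ion channel genes outside the symbol rule, 3 were higher in both comparisons and 0 lower, close to the 8.31% and 8.12% of all genes tested that were higher, and 0 were lower at an unadjusted p under 0.05. Pkd1, the polycystin, had 1187 ± 128 CPM with exon 5, 1316 ± 73.6 without exon 5 and 144 ± 126 in input (SD, n = 3 each), for log2 fold changes of 3.05 and 3.19 (adjusted p = 0.0453 and 0.0407). Ryr2, the ryanodine receptor that releases stored calcium, had 330 ± 118, 348 ± 25.1 and 38.2 ± 28.0 CPM (log2 3.11 and 3.19, adjusted p = 0.0474 and 0.0454). Cftr, the epithelial chloride channel, had 0 in the inputs and was at least 8.77-fold higher with exon 5 and at least 9.83-fold higher without exon 5 (adjusted p = 0.0146 and 0.0151). The median log2 fold change was 1.72 and 1.32 in the partner list and 1.03 and 1.23 in the other channels, with exon 5 and without exon 5 over input, beside 1.03 and 1.03 in all genes tested.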

How the data were processed

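Gene-level iCLIP counts were analysed for 9 mouse N2a libraries, 3 each of FLAG-Chtop with exon 5, FLAG-Chtop without exon 5 and input. The authors deposited whole-number counts per gene for the 5′ UTR, CDS, 3′ UTR and their total, and a further table with log2 fold changes between isoforms and the classes drawn from them, per the file headers. The submitters' processing notes name mm10, TopHat2 and DESeq2. The reverse transcription primers carried random bases, per the labels' protocols. The sources used here do not state how reads with the same bases, strand or multiple matches were handled. Columns were matched to samples by their names and the reverse transcription primer. The input columns carry other replicate numbers than the sample titles, and 27 per-sample columns that match no sample were not used.

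Counts were tested with edgeR 4.0.16 in R 4.3.3 (quasi-likelihood, robust, TMM, filterByExpr set at 10 counts per gene and 15 in total), 1 fit of all 9 libraries per table, with Benjamini-Hochberg adjustment over all genes and a threshold of 0.05. Part use was tested with diffSpliceDGE. Alternatives were DESeq2 1.42.0, limma-voom (limma 3.58.1), library size alone, no filter, length offsets, replicate blocks, 2 groups alone and each library left out. Scripts were tested on simulated counts. Totals of 75504 to 173342 counts in the inputs, against 624062 to 1844970 in the immunoprecipitates, limit the precision. Lower bounds use 3 counts per input library, or 19.0 CPM on average.

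The members and lists were chosen with earlier results of these data known. Members named with values were Scn2a and Scn3a, those past the threshold in totals or parts, the 10 with the highest mean CPM in the immunoprecipitates, and the highest of each family. A few members that this rule takes are not reported here. Other members with values are said to have been chosen after these were seen. Symbols were matched to RefSeq positions (GRCm38.p6) for all 101 members. The replicates are independent cultures, but each input came from a different line, so the spread among the inputs mixes line and culture. The main fit took in all 9 libraries. P-values for an isoform over input therefore also draw on the spread of the other isoform, and those between isoforms on the spread of the inputs. No block was used in the main fit. Between libraries that share a number in the titles, deviations from the group means correlated at -0.015 to 0.036 over 9 pairs. With sparse counts such values cannot show that the samples are unpaired.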

Additional observations from a re-analysis of the deposited data

How the results depend on the processing

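The counts of members past the threshold over input moved with the scaling, the block and the libraries used. Values are given for with exon 5 and without exon 5 over input, then for the CDS and the 3′ UTR of both isoforms over input, where 13, 13, 18 and 9 members passed. Scaling by library size alone gave 4, 3, 3 and 4. A replicate block by the numbers in the titles gave 5, 5, 6 and 5, and a block by the numbers in the column names, added after seeing the data, gave 5, 4, 6 and 5. Libraries that share a number had deviations correlated at -0.015 to 0.036 by title and -0.006 to 0.037 by column name, which cannot decide whether they are paired. A fit of the 2 groups compared alone gave 0 and 0 for the gene totals. Restricting to members named by the length table, added after seeing the data, gave 4 and 2 for the totals. DESeq2 gave 15 in the 3′ UTR, of which 1 was lower. Leaving out 1 library gave 0 to 23, 0 to 21, 2 to 26 and 1 to 15. Within 1.5 times the main counts stayed DESeq2 (19, of which 1 lower, and 15, and 16 in the CDS), no filter (17, 14, 15 and 7, with Trpv3 the 1 lower in the first and in the last), limma-voom (14 and 11) and length offsets (11 and 11). Comparisons between isoforms, and of part use, gave 0 members under every alternative run, leave-one-out included. For members past the threshold, and those whose groups did not overlap between the isoforms, no direction reversed. Of their single-gene values, 357 kept their side of the threshold and 220 lost it. The 357 include every value between isoforms, where there was no call to lose, so they overstate how often a call held. Calls over input held under as few as 4 of 18 settings (Cacng4 without exon 5) and at most 16 of 18 (among them Scn3a with exon 5). Of the named members short of the threshold over input, the sign turned for Hcn2 (under 3 settings with exon 5 and 7 without exon 5, among them leaving out input replicate 2) and Kcnk3 (under 4 and 1). The cause of these changes was not tested, except that fewer libraries or fewer genes enter where they are left out.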
